A study of Mus musculus with 6 samples.

Results

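The genes described here encode receptors, transcription factors and cytokines by which natural killer (NK) cells are recognised and controlled: Klrd1, Klrk1, Klrb1c, Ncr1, Il2rb, Cd244, Eomes, Tbx21, Ifng and Il15. They were followed through every probe set whose gene symbol in the authors' deposited table was exactly 1 of these names. This gave 11 of 45101 probe sets, for 9 of the 10 genes. The 2 probe sets of Cd244 carry a further gene symbol, so Cd244 had 0 member probe sets and was not analysed here. The arrays measured 6 whole mammary tumours grown from 4T1.2, a metastatic mouse mammary carcinoma line. All tumours grew from 100000 cells placed in mammary fat pad number 4 of female BALB/c mice aged 6 to 8 weeks, and were removed at about 0.3 g. Cells of 3 tumours held pBabepuro, a retroviral vector, without insert (control tumours), and cells of 3 carried pBabepuro with murine Bmp4 (Bmp4 tumours). The labels do not say whether the cells were a pool or 1 clone, or that each tumour came from its own mouse, so p-values cover only the spread seen among these tumours, which may be technical.

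NK cells are innate lymphocytes that kill infected or transformed cells, and their activity follows the balance of activating and inhibitory surface receptors. Interleukin 15 sustains them through a receptor that shares its beta chain with interleukin 2, the transcription factors EOMES and TBX21 set their programme, and interferon gamma is among their main products. Few of these genes belong to NK cells alone: activated T cells also use Klrd1, Klrk1, Il2rb, Eomes, Tbx21 and Ifng, and myeloid and stromal cells make Il15. In whole tumours, fewer cells of a type and less RNA per cell cannot be told apart.

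Values are deposited log2 expression levels. Differences, in log2 units (1 is a 2-fold change), are the mean of Bmp4 tumours minus that of control tumours. They were tested with limma across 45037 probe sets with Benjamini-Hochberg adjustment and a threshold of adjusted p under 0.05. The array of control tumour 1 stood apart, with a correlation of at most 0.719 with any other array, against 0.959 to 0.993 among the other 5. The members' differences, and the medians and p-value counts of the pathway lists, are therefore given with and without it. Where only 1 difference of a list gene is given, it includes control tumour 1 unless stated. 3 technical measures also separated the groups. The level of the 3' probe set of Actb above that of its 5' probe set, which grows as RNA is degraded, was 5.64, 4.18 and 2.62 for control tumours 1 to 3, against 1.44, 2.32 and 2.33 for Bmp4 tumours 1 to 3. The same measure on Gapdh overlapped, at 2.46 to 5.31 for control and 1.62 to 3.13 for Bmp4 tumours. The mean of the hybridization controls was 13.0, 11.2 and 10.7 for control tumours 1 to 3 and 10.3 or less for Bmp4 tumours. The interquartile range of all values was 2.25, 3.36 and 3.64 for control tumours 1 to 3 and 3.67 to 3.77 for Bmp4 tumours. The part of these measures in the results was not tested. Control tumour 2 alone held signal of added poly-A control transcripts (mean 11.3 for their 3' probe sets, against 4.22 to 4.84 elsewhere). The Bmp4 probe set read 4.99 to 6.48 for control and 4.94 to 5.51 for Bmp4 tumours (difference -0.64 with limma adjusted p = 0.499, or -0.30 with 0.666 when control tumour 1 was left out). It was not higher in the tumours labelled Bmp4; the sources used here do not give whether it reads the vector's insert, so it checks no label. Of the keratin transcripts of mammary carcinoma cells, Krt8 read 12.1 to 13.0 and Krt18 9.82 to 12.07 over the 6 arrays. Krt19 was dimmer, at 5.03 to 6.05.

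The members did not share 1 direction. Klrd1, the probe set 1448759_at of Il2rb, Tbx21, Ifng and Il15 had higher means in the Bmp4 tumours by 1.08 to 2.29, while Ncr1 and Klrb1c, the receptors most closely tied to NK cells, had lower means (-0.59 and -0.52, or -0.09 and -0.26 without control tumour 1). None of the 11 member probe sets passed the threshold with all 6 arrays (limma; 0% of all probe sets were called in either direction) or without control tumour 1 (0.00222% called higher and 0.00666% lower). With an unadjusted limma p below 0.05 there were 5 members higher and 0 lower with all 6 arrays, against 3.89% of all probe sets higher and 1.81% lower. Without control tumour 1 there were 6 higher and 0 lower, against 7.7% and 5.72%. The median difference of the 11 members was 0.54, and that of all probe sets -0.20; without control tumour 1 these were 0.65 and -0.06. In 6 of the 11 members all Bmp4 values exceeded all control values, as in 10.6% of all probe sets, and in 0 they were all lower, as in 14.9%. Without control tumour 1 these counts were 7 (14% of all probe sets) and 0 (19%). The mean was higher in Bmp4 tumours for 8 members (38% of all probe sets), and for 9 without control tumour 1 (41.2%). Against control tumour 3 alone, where the single control is assumed to vary like the Bmp4 tumours, 0 members passed (0% of all probe sets in either direction) and 2 were higher and 0 lower with unadjusted p below 0.05 (4.33% and 3.91%). There the members lay wholly above that tumour in 7 cases (26.7%) and wholly below in 0 (30.5%), with 10 higher means (46.7%) and a median of 0.41. For any 1 value, the smallest p that exact two-sided permutation allows in 3 against 3 is 0.1.

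**Figure D1:**
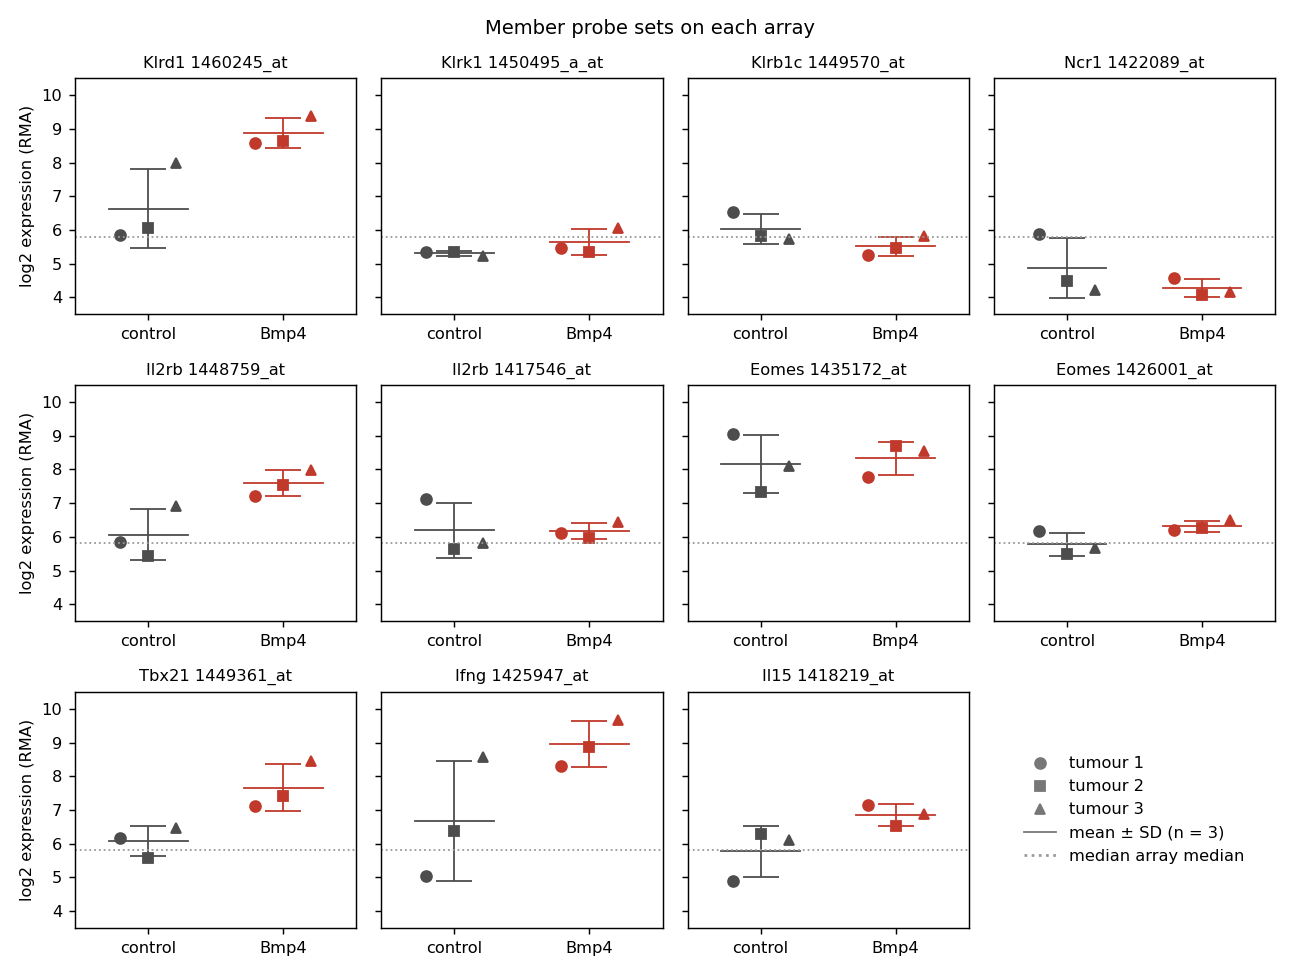
Log2 expression (RMA, vertical axis) of the 11 member probe sets in 3 control (grey) and 3 Bmp4 (red) tumours, 1 panel per probe set. Symbols mark tumour numbers, bars the mean ± SD (n = 3) and the dotted line the middle of the arrays' medians. In Klrd1, Tbx21 and Il2rb 1448759_at all Bmp4 tumours lie above all control tumours, and in Ncr1 the values of both groups overlap below the line, apart from control tumour 1 at 5.89.

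Among the receptors, Klrd1 encodes CD94, the lectin-like partner with which NKG2 proteins read a non-classical class I molecule. On the probe set 1460245_at its level was 5.87, 6.05 and 7.99 for control tumours 1 to 3, against 8.59, 8.64 and 9.38 for Bmp4 tumours 1 to 3. All Bmp4 tumours were above all control tumours, and control tumour 3 stood 1.93 above control tumour 2, so the spread within the control group was wide. The difference was 2.24 ± 0.61 (SE), or 4.72-fold, and 1.85 ± 0.57 (SE), or 3.62-fold, without control tumour 1 (limma adjusted p = 0.499 and 0.326). Against control tumour 3 alone Klrd1 differed by 0.89, with the lowest Bmp4 tumour 0.61 above that array. Within each array Klrd1 ranked at the percentiles 43.2, 53.3 and 75.5 of all probe sets in control tumours 1 to 3, and at 80.3, 81.6 and 86.8 in Bmp4 tumours 1 to 3. The order of the control tumours in Klrd1 was the reverse of their order in the Actb measure, whose part in the difference was not tested.

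Klrk1 encodes NKG2D, an activating receptor for stress-induced ligands. On 1450495_a_at its level was 5.36, 5.35 and 5.23 for control tumours 1 to 3, against 5.48, 5.36 and 6.07 for Bmp4 tumours 1 to 3. Bmp4 tumour 3 alone stood out, and Bmp4 tumour 2 was nearly level with control tumour 1, so the groups were barely apart. The difference was 0.32 ± 0.27 (SE), and 0.35 ± 0.24 (SE) without control tumour 1 (limma adjusted p = 0.503 and 0.518). The authors' deposited table gives a larger ratio of 1.67 for this probe set. Klrk1 lay below the array median on 5 of the 6 arrays.

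Ncr1 encodes NKp46, an activating receptor carried by NK cells and some innate lymphoid cells. On 1422089_at its level was 5.89, 4.50 and 4.23 for control tumours 1 to 3, against 4.59, 4.09 and 4.15 for Bmp4 tumours 1 to 3. It was dim throughout, below the array median on all 6 arrays and below the 25th percentile on 3. Control tumour 1, whose array had the highest median, was the only high value. The difference was -0.59 ± 0.48 (SE), and -0.09 ± 0.20 (SE) without control tumour 1 (limma adjusted p = 0.501 and 0.858). Against control tumour 3 alone this became 0.05, so its sign rested on the control arrays used.

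Klrb1c encodes NKR-P1C, the receptor known as NK1.1 in C57BL/6 mice, an antigen that antibodies do not detect on BALB/c cells. On 1449570_at its level was 6.54, 5.82 and 5.74 for control tumours 1 to 3, against 5.27, 5.47 and 5.82 for Bmp4 tumours 1 to 3. The groups overlapped through Bmp4 tumour 3. The difference was -0.52 ± 0.32 (SE), and -0.26 ± 0.19 (SE) without control tumour 1 (limma adjusted p = 0.499 and 0.545). How well this probe set matches the BALB/c transcript was not tested, and Klrb1 genes are close copies that probes may share. For scale, 9 probe sets of the Y-linked genes Ddx3y, Eif2s3y and Uty, which female mice lack, reached at most 3.37 to 4.78 on these arrays. All 11 members lay above that level on every array.

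Il2rb encodes the beta chain shared by the receptors for interleukins 2 and 15. The probe set 1448759_at read 5.84, 5.44 and 6.92 for control tumours 1 to 3, against 7.23, 7.55 and 8.00 for Bmp4 tumours 1 to 3. All Bmp4 tumours were higher, by 0.31 at the nearest point. The difference was 1.52 ± 0.44 (SE), or 2.88-fold, and 1.41 ± 0.45 (SE) without control tumour 1 (limma adjusted p = 0.499 and 0.326). Against control tumour 3 alone this probe set differed by 0.67. The other probe set, 1417546_at, read 7.13, 5.63 and 5.81 for control tumours 1 to 3, against 6.11, 5.98 and 6.45 for Bmp4 tumours 1 to 3. Control tumour 1 was the highest of its 6 values. Its difference was -0.02 ± 0.44 (SE), and 0.45 ± 0.19 (SE) without control tumour 1 (limma adjusted p = 0.983 and 0.371). The probe sets of 1 gene thus gave different sizes in both settings, and the sign of 1417546_at turned with control tumour 1.

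Il15 encodes the cytokine that this receptor chain binds. On 1418219_at its level was 4.90, 6.30 and 6.11 for control tumours 1 to 3, against 7.16, 6.52 and 6.87 for Bmp4 tumours 1 to 3. All Bmp4 tumours were higher than all control tumours, and the value of control tumour 1 lay below the 25th percentile of that array (5.04). The difference was 1.08 ± 0.43 (SE), and 0.65 ± 0.22 (SE) without control tumour 1 (limma adjusted p = 0.499 and 0.328). Unlike Klrd1, control tumours 2 and 3 were alike here, and against control tumour 3 alone the difference was 0.74.

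Tbx21 and Eomes encode the T-box transcription factors of NK cells and cytotoxic T cells, and TBX21 is known to act on Ifng. Sequence before the start of Ifng and of Tbx21 is shown because both had higher means in the Bmp4 tumours by 1.58 or more with all 6 arrays and carry the core of the T-box motif. The sequences are the 250 bases before each start from RefSeq, build GRCm38.p6 (strain C57BL/6J, not the BALB/c of these tumours), 5′ to 3′ on the gene's strand, with every AGGTG and its reverse complement CACCT in capitals. They are chr10:118440796-118441045 on the plus strand for Ifng and chr11:97115332-97115581 on the minus strand for Tbx21.
Ifng: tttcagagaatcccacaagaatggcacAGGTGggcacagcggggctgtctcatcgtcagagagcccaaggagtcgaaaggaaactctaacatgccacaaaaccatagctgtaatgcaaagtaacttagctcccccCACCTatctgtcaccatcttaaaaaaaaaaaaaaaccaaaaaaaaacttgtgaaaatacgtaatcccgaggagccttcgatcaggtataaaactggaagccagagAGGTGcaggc
Tbx21: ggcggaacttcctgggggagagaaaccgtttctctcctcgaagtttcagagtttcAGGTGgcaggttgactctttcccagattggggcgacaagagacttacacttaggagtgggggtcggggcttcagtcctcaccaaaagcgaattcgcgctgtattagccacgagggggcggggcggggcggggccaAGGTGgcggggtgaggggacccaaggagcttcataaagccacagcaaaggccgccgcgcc
RefSeq gave such a sequence for 6 of the 9 genes. Searched on both strands, AGGTG was found 3 times for Ifng, 2 times for Tbx21, 1 time for Eomes and 0 times for Klrk1, Klrb1c and Ncr1, and 46% of 32851 promoters of that length hold it. The longer T-box site AGGTGTGA, which contains AGGTG, was found in 0 of the 6 and in 1.12% of all. The STAT-binding GAS element TTCNNNGAA was found 1 time, for Ifng, and in 7.02% of all. A match is a string of letters, and binding was not measured.

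The Tbx21 probe set 1449361_at read 6.17, 5.59 and 6.47 for control tumours 1 to 3, against 7.12, 7.40 and 8.45 for Bmp4 tumours 1 to 3. All Bmp4 tumours were above all control tumours, with a gap of 0.66 to control tumour 3. The difference was 1.58 ± 0.43 (SE), or 3-fold, and 1.63 ± 0.45 (SE) without control tumour 1 (limma adjusted p = 0.499 and 0.313). It stayed at 1.19 against control tumour 3 alone, where it was the largest of the 11 members.

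Eomes had 2 probe sets. The brighter, 1435172_at, read 9.05, 7.32 and 8.11 for control tumours 1 to 3, against 7.77, 8.68 and 8.54 for Bmp4 tumours 1 to 3. The groups overlapped, and control tumour 1 was the highest of the 6. The difference was 0.17 ± 0.50 (SE), and 0.62 ± 0.35 (SE) without control tumour 1 (limma adjusted p = 0.818 and 0.458). With quantile normalization of the 6 arrays its sign turned, to -0.41. The probe set 1426001_at read 6.16, 5.49 and 5.68 for control tumours 1 to 3, against 6.20, 6.25 and 6.49 for Bmp4 tumours 1 to 3. Here the groups did not overlap, although Bmp4 tumour 1 and control tumour 1 lay close together. Its difference was 0.54 ± 0.27 (SE), and 0.73 ± 0.16 (SE) without control tumour 1 (limma adjusted p = 0.499 and 0.300).

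Ifng encodes interferon gamma, the cytokine that raises antigen presentation and activates macrophages. On 1425947_at its level was 5.05, 6.39 and 8.57 for control tumours 1 to 3, against 8.32, 8.88 and 9.67 for Bmp4 tumours 1 to 3. Control tumour 3 lay above Bmp4 tumour 1, so the groups overlapped, and the control values spanned the widest range of any member. The difference was 2.29 ± 0.90 (SE), or 4.88-fold, with all arrays and 1.47 ± 0.68 (SE), or 2.78-fold, without control tumour 1 (limma adjusted p = 0.499 and 0.399). Against control tumour 3 alone it was 0.38. Control tumour 1 ranked Ifng at the percentile 25.1 of its array, and the other tumours at 58.3 to 88.9.

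**Figure D2:**
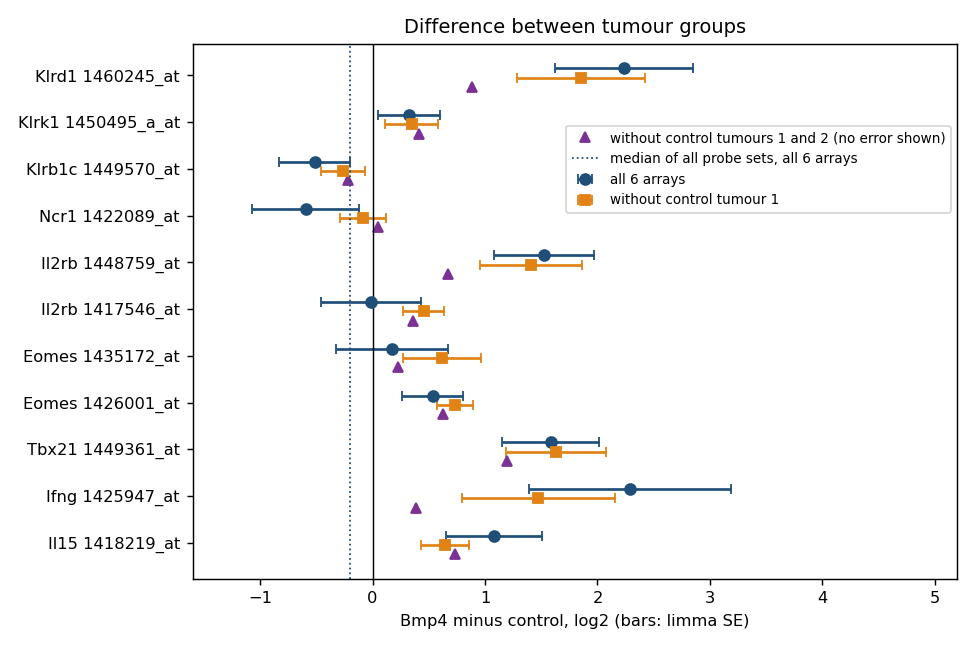
Difference between Bmp4 and control tumours (log2, horizontal axis) for the 11 member probe sets, with limma SE as bars, for all 6 arrays (circles) and without control tumour 1 (squares), and against control tumour 3 alone (triangles, no error). The dotted line is the median of all probe sets with all 6 arrays (-0.20). The Klrd1 and Ifng differences of 2.24 and 2.29 shrink to 0.89 and 0.38 against control tumour 3 alone, while Tbx21 goes from 1.58 to 1.19.

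The authors' deposited table gives ratios above 1 for 10 of the 11 members, the highest being 3.94 for Klrd1, 3.23 for Tbx21, 3.10 for Ifng and 2.67 for Il2rb 1448759_at. The exception in that table is Klrb1c at 0.940. The smallest adjusted p among these members in the authors' deposited table is 0.523.

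The members also differed in profile over the arrays. Likeness to Klrd1 was measured as the root mean square difference of log2 values, each centred on its mean over the 6 arrays. Of 45036 other probe sets, Ifng (0.47) and Il2rb 1448759_at (0.48) were the 56th and 62nd nearest to Klrd1 and Tbx21 (0.64) the 385th. Il15 (0.90) was 2992nd, while Ncr1 (1.83) and Klrb1c (1.63) were 38292nd and 29780th. The 5 nearest genes were Cd74 (0.27), the invariant chain of class II molecules, Cd3g (0.28), a chain of the T cell receptor complex, Smc4 (0.29), a condensin subunit, AI661384 (0.30) and Adam10 (0.33), a membrane protease. All 5 were lowest in control tumours 1 and 2, next in control tumour 3 and highest in the Bmp4 tumours. Klrd1 has this order too, so it follows from how the 5 were chosen.

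**Figure D3:**
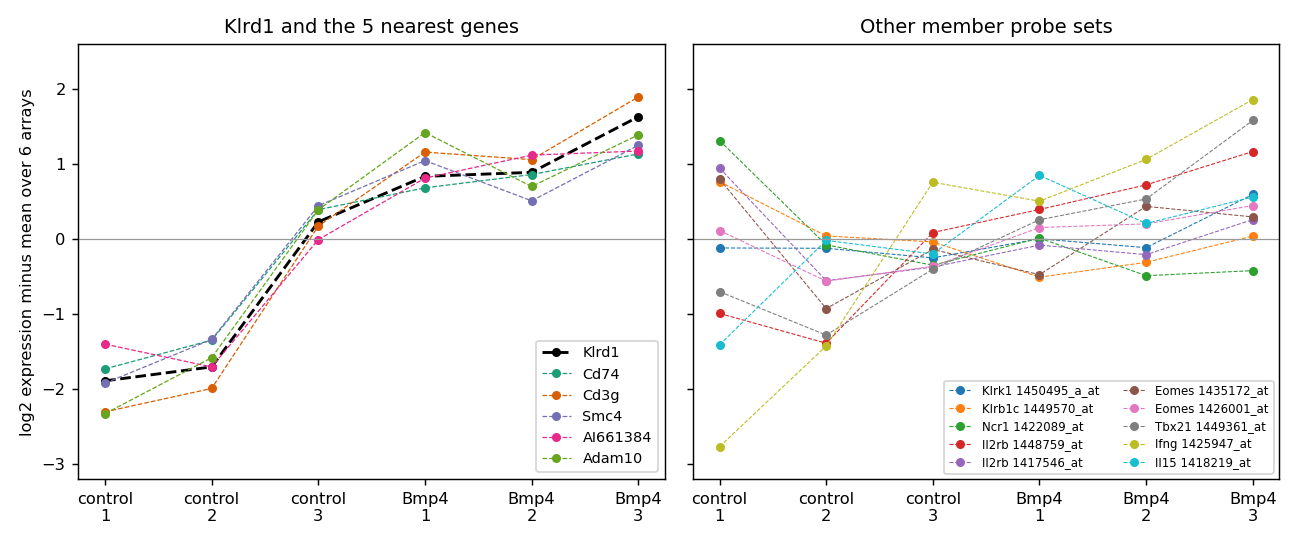
Log2 expression minus its mean over the 6 arrays (vertical axis) on each array (horizontal axis), for Klrd1 with its 5 nearest genes (left) and for the other 10 member probe sets (right). Dashed lines join the values of 1 probe set and imply no order of tumours. On the left control tumour 3 lies between the lower control tumours 1 and 2 and the Bmp4 tumours, and on the right Ncr1, Klrb1c, Eomes 1435172_at and Il2rb 1417546_at are highest in control tumour 1.

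Other receptors of NK cells varied in level. Of 28 listed, 20 had a probe set of their own, and 6 of these (Klrc2, Klrc3, Klra1, Klra7, Klrb1a and Cd226) lay below the 25th percentile on all 6 arrays. With limma, 0 passed the threshold in either setting. At an unadjusted p under 0.05, 3 were higher and 0 lower with all arrays, and 5 and 0 without control tumour 1. Of all probe sets 3.89% were higher and 1.81% lower, then 7.7% and 5.72%. Their median difference was 0.01, and 0.16 without control tumour 1. Cd69, an early activation antigen of lymphocytes, differed by 2.31 ± 0.59 (SE) and then 1.67. The lectin-like receptors Klrb1b, Klra2 and Klre1 differed by 1.09, 0.87 and 0.64, each from control values of 5.25 or less. Klra and Klrb1 genes are close copies whose number differs between mouse strains, so which gene these probe sets read is uncertain. Klrc1, which encodes the NKG2A partner of CD94, read 3.88 to 4.75 for control and 3.94 to 4.43 for Bmp4 tumours, with a difference of 0.01, and 0.28 without control tumour 1.

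Adaptors and kinases that carry receptor signals gave 5 of 13 higher and 0 lower with unadjusted p below 0.05 on all arrays, and 4 higher and 1 lower without control tumour 1, with 0 past the limma threshold in either setting. Of all probe sets 3.89% were higher and 1.81% lower, then 7.7% and 5.72%. The median difference was 0.90, then 0.62, and 0.12 against control tumour 3 alone. The kinase Lck differed by 2.29 ± 0.60 (SE), the CD3 zeta chain Cd247 by 1.21 and the scaffold Lcp2 by 1.10. These genes also serve T cells. Of the 13 means 10 were higher, where 38% of all probe sets were (7 against control tumour 3 alone, where 46.7% were). The kinase Zap70 went the other way, by -0.65 (-0.24 without control tumour 1), with all Bmp4 values below all control values. The 1 lower gene without control tumour 1 was Plcg2, at -0.38. Hcst, which encodes DAP10, the adaptor of NKG2D, differed by -0.03, and Tyrobp, which encodes DAP12, by 0.76. Without control tumour 1 these were 0.31 and 0.71.

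Genes of IL2, IL15, IL12 and IL18 signalling gave 3 of 20 higher and 0 lower with unadjusted p below 0.05, and 6 and 0 without control tumour 1, with 0 past the limma threshold in either setting. The median difference was 0.49, then 0.42. Stat4, which acts after interleukin 12, differed by 2.51 ± 0.65 (SE), the interleukin 7 receptor Il7r by 1.87, Stat5a, which acts after Il2rb, by 0.69 and the IL18 receptor Il18r1 by 1.18. Interferon gamma receptor and response genes gave 2 of 11 higher and 0 lower, then 5 and 0, with medians of 1.14 and 0.42 and again 0 past the threshold. For the counts of both lists, the shares of all probe sets were 3.89% higher and 1.81% lower, then 7.7% and 5.72%. Ifngr1, a receptor chain, differed by 1.55 ± 0.46 (SE), the chemokine Cxcl9 by 1.53 and the transcription factor Irf1 by 0.70, or 0.42 without control tumour 1.

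Of 13 listed ligands of the members' receptors or of other Klrb1 receptors, 4 were measured and 0 passed the threshold with limma. At an unadjusted p under 0.05 there was 1 higher and 0 lower, then 1 higher and 1 lower. The median difference was -0.30, then 0.07. Cd48, the ligand of the receptor that Cd244 encodes, differed by 2.76 ± 0.82 (SE), from 3.89, 5.10 and 7.21 in control tumours 1 to 3 to 8.58, 7.87 and 8.02 in Bmp4 tumours 1 to 3. H60c, an NKG2D ligand in mice, was dim and differed by -1.04, and by -0.49 without control tumour 1. Clec2i and Clec2d, ligands of Klrb1 receptors other than Klrb1c, differed by -0.80 and 0.20, or -0.15 and 0.28 without control tumour 1. Lineage factors of innate lymphocytes gave 1 of 9 higher and 0 lower with unadjusted p below 0.05, then 3 and 0, with medians of 1.04 and 0.39 and 0 past the threshold. For the counts of ligands and lineage factors, the shares of all probe sets were 3.89% higher and 1.81% lower, then 7.7% and 5.72%. Of the 9 lineage factors 7 had higher means with all 6 arrays (38% of all probe sets), but only 5 without control tumour 1 (41.2%). Ikzf3 differed by 1.27 ± 0.37 (SE), Gata3 by 1.97, Id2, a BMP-induced factor that NK cells need, by 1.92 and Runx3 by 0.75; without control tumour 1 these were 1.19, 0.67, 0.87 and 0.39.

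Marker lists give the other cells that these tumours could hold. T cell markers had a mean log2 level of 6.25 to 7.01 in the control group, wholly below the Bmp4 range of 7.6 to 7.79, and 8 of 9 had higher means in Bmp4 tumours, where 38% of all probe sets did. Cd3g differed by 2.74, Cd5 by 1.97, Cd3d by 1.77, Cd8a by 1.02, Cd8b1 by 1.0 and Cd6 by 0.85. The other T cell markers, Cd3e, Cd4 and Trat1, differed by 0.05, 0.02 and -0.07, or 0.39, 0.39 and 0.09 without control tumour 1. The NK-restricted markers, a list that also holds Gzma, which T cells share, had a mean level of 5.45 to 6.02 in the control group. This took in the whole Bmp4 range of 5.8 to 5.97. Control tumour 1 alone made this overlap of the list means: control tumours 2 and 3, at 5.45 and 5.73, lay below all Bmp4 tumours. Without control tumour 1, Gzma and Klre1 were the only genes of the list whose groups did not overlap. That list holds Ncr1 and Klrb1c, and 2 of its 5 measured genes had higher means. Gzma, a granzyme that T cells share, differed by 1.65 (1.04 without control tumour 1) and Klre1 by 0.64 (0.79). The fifth, Sh2d1b1, an adaptor of SLAM receptors, differed by -0.44, or -0.02 without control tumour 1. Without control tumour 1 the median difference was 1.07 for the 9 T cell markers and -0.02 for the 5 genes of the NK-restricted list. The difference between these medians was not tested, and the part of T cells in the members' differences was not tested.

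**Figure D4:**
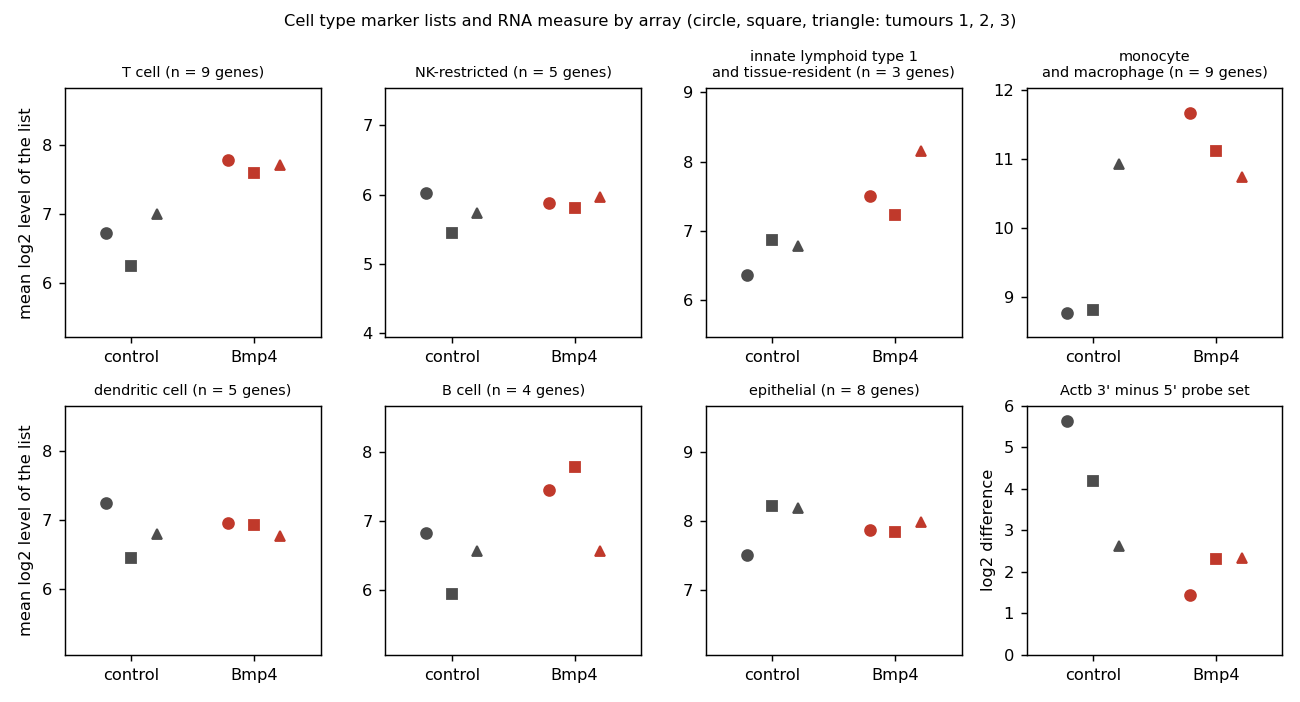
Mean log2 level of 7 marker lists (vertical axis, 1 point per tumour; n is the number of genes) in control (grey) and Bmp4 (red) tumours, and the Actb 3' minus 5' difference (log2). Each list axis spans the same log2 range. The T cell and type 1 innate lymphoid lists do not overlap between groups, and the NK-restricted list does through control tumour 1 alone. Without that tumour, Gzma, which T cells share, and Klre1 are the only genes of that list whose groups do not overlap. The Actb measure is 2.62 or more in control tumours and 2.33 or less in Bmp4 tumours.

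Markers of type 1 innate lymphoid and tissue-resident lymphocytes had a mean level of 6.36 to 6.87 for control and 7.22 to 8.16 for Bmp4 tumours over 3 measured genes. Cxcr6, a chemokine receptor, differed by 1.75 and Tnfsf10, which encodes the death ligand TRAIL, by 1.24, while the integrin Itga1 differed by -0.11, or -0.48 without control tumour 1. Activated T cells also carry Cxcr6 and Tnfsf10. Monocyte and macrophage markers, which include possible sources of Il15, had a mean level of 8.78 to 10.93 for control and 10.75 to 11.67 for Bmp4 tumours, with 8 of 9 means higher. For this and the counts of higher means below, the share of all probe sets was 38%. The monocyte and macrophage markers ranged from C1qb at -0.15 and Csf1r at 0.35 to Lyz2 at 2.35 and Cd68 at 3.0. Without control tumour 1 these were 0.64, 0.76, 1.87 and 1.67, and all 9 means were higher (41.2% of all probe sets). The median difference of these markers was 1.75, then 1.48 without control tumour 1, and 0.14 against control tumour 3 alone. Dendritic cell markers (6.45 to 7.25 and 6.77 to 6.95, 3 of 5 higher) and B cell markers (5.94 to 6.82 and 6.57 to 7.78, 4 of 4 higher) overlapped between the groups. For B cell markers control tumour 1 alone made the overlap, although control tumour 3 (6.56) and Bmp4 tumour 3 (6.57) were nearly level. Epithelial markers read 7.52 to 8.22 for control and 7.85 to 8.00 for Bmp4 tumours, with 4 of 8 means higher. They went both ways, from Cldn3 at -0.74 and Epcam at -0.51 to Krt8 at 0.36 and Krt18 at 0.78; without control tumour 1 these were -0.26, -0.37, 0.12 and 0.10, and Cdh1 moved from -0.29 to -1.25. In 0 of these 7 lists did a marker lie below the 25th percentile on all 6 arrays. The part of these cell types in the members' differences was not tested.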

How the data were processed

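Total RNA of 6 whole tumours was labelled by a kit that primes at the 3' end and measured on 1 array each, per the labels. Per the submitters' processing notes, the authors used RMA and Partek 6.6, and the deposited series values are on the log2 scale. The sources used here do not give the build, the annotation or which arrays were normalized together. A deposited table of the authors' comparison gives, per the file headers, a ratio of Bmp4 over control, a p-value with an adjusted p-value, and a score of fold change and of F from an analysis of variance. Gene symbols came from that table, and list genes were matched through RefSeq names (GRCm38.p6).

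The 64 control probe sets were left out of the tests. Every other probe set was tested with limma 3.58.1 in R 4.3.3 (lmFit and eBayes, two-sided, 2 groups, no filter), after a test on simulated data. With all 6 arrays that test recovered 0% of planted 2-fold, 7.76% of 4-fold and 26.7% of 8-fold changes at the threshold. Without control tumour 1 it recovered 11.9%, 60.6% and 83.3%. A member that did not pass can therefore still differ. Of each listed gene only its brightest probe set on average was used. The text names every member, of each pathway list the up to 4 genes with the smallest p, and the 5 nearest profiles to Klrd1. The marker list genes, Klrc1, Hcst, Tyrobp, Zap70, Plcg2 and Sh2d1b1 were named after their values were seen. Some list genes that the rule names are not reported here. The members and lists were chosen with earlier results of these data known. Alternatives were quantile normalization, centring on the 75th percentile, a filter at the 25th percentile of mean level, 1 probe set per gene, trend and robust options, array weights, tumour number as a block, the authors' deposited table and omission of each tumour. Omission of control tumours 1 and 2 together and gene-by-gene weights were added after the data were seen. The number of arrays limits the precision.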

Additional observations from a re-analysis of the deposited data

How the results depend on the processing

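Over all settings, 17 of the members' alternative values turned sign, and all of them belonged to Il2rb 1417546_at, Eomes 1435172_at and Ncr1. The authors' deposited table is a single comparison that was set beside both results, with and without control tumour 1, so its Ncr1 value is counted under each. The Ncr1 fit without control tumours 1 and 2 is likewise 1 fit counted under each. With all 6 arrays, Il2rb 1417546_at went from -0.02 to 0.59 with array weights, 0.55 with gene-by-gene weights, 0.43 in the authors' deposited table and 0.36 without control tumours 1 and 2, and ranged from -0.30 to 0.45 when single tumours were left out. Eomes 1435172_at went from 0.17 to -0.41 with quantile normalization and -0.13 with centring on the 75th percentile, and ranged from -0.24 to 0.62 when single tumours were left out. Ncr1 (-0.59, and -0.09 without control tumour 1) was 0.038 in the authors' deposited table, 0.050 without control tumours 1 and 2, and, without control tumour 1, 0.018 with quantile normalization and -0.24 to 0.050 when a further tumour was left out. The cause was not tested. The scaling shifted the median of all probe sets from -0.20 to -0.07 (quantile) and -0.50 (75th percentile) with all 6 arrays, and from -0.06 to -0.02 and -0.17 without control tumour 1.

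The members' median difference with all 6 arrays (0.54) was 0.24 with centring on the 75th percentile, 1.08 with 1 probe set per gene, where only 9 members remain, and 0.85 with array weights; single omissions gave 0.39 to 0.65. Without control tumour 1 (0.65) they gave 0.41 to 0.83. With all 6 arrays, 0 probe sets passed, but 23167 did with array weights, whose estimate did not converge and gave control tumour 2 a weight of 33.2, and 53 with gene-by-gene weights. Under the first of these 8 member probe sets passed; the cause was not tested. Single omissions gave 0 to 4, the 4 being without control tumour 1. Without control tumour 1 the count of 4 became 7 with centring on the 75th percentile, 2 with either weighting and 0 with tumour number as a replicate block. Omission of a further tumour gave 0 to 2. In the authors' deposited table, a single comparison, 0 probe sets passed. Tumours of the same number did not deviate together (r = -0.13, -0.22 and -0.04 across probe sets), so the numbers are not treated as pairs, and the block changed no other call.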
